A study of Mus musculus with 4 samples.

Results

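The Hox genes encode homeodomain transcription factors that lie in 4 clusters, HoxA to HoxD, and are numbered 1 to 13 by their relation to each other across the clusters. They were taken as every row whose gene symbol was Hox, a cluster letter and a number, which gave 39 of the 21965 genes with a usable row, in 41 rows. All 41 rows had the quantification status OK in both libraries, and the 2 rows each of Hoxa10 and Hoxb3 were summed. In the tables, HoxA lies on chromosome 6, HoxB on chromosome 11, HoxC on chromosome 15 and HoxD on chromosome 2 (mouse build mm9). The compared groups were control mice and Zeb2 cKO mice at postnatal day 7, both on a mixed strain background. RNA came from pooled sciatic nerves, the mixed peripheral nerves of the hind limb. Zeb2 encodes a zinc finger repressor, which cKO mice lack in some of their cells (conditional knockout). The labels name neither the Cre line, the cells in which it acts nor the deleted exons. They describe 2 samples per group, and 1 table per group was analysed and treated as 1 library.

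In the embryo, Hox genes come on in the order in which they lie along the chromosome, so that low-numbered genes act toward the head and high-numbered genes toward the tail and the limb ends. Polycomb complexes keep the unused part of each cluster silent, and Trithorax proteins, retinoic acid and Cdx factors act on the opened part. Fibroblasts and other stromal cells keep part of this positional code after birth. The proteins bind DNA with TALE partners such as Pbx and Meis, and microRNAs encoded inside the clusters act on Hox transcripts.

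Those microRNAs fall into families by their seed, the bases at positions 2 to 8, which are in capitals below. They are shown because their host rows lie between the Hox genes and because miR-196 is known to cut Hoxb8 mRNA. The mature sequences are RefSeq's (GRCm38.p6), and positions are counted from 1 at the 5′ end. The miR-10 members share the seed ACCCUGU and differ by U12A from 10a to 10b. The miR-196 members share AGGUAGU and differ by A12C from 196a to 196b.
mmu-miR-10a-5p: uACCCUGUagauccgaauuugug
mmu-miR-10b-5p: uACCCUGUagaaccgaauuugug
mmu-miR-196a-5p: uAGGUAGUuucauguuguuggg
mmu-miR-196b-5p: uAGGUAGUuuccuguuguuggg

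A search of GENCODE M21 transcripts (GRCm38) found the closest partner of miR-196a-5p among the Hox genes in the 3′ UTR of Hoxb8. There, 21 of 22 bases paired, in capitals below, and the remaining 1 was a G:U wobble. The site covers positions 2208 to 2229 of a transcript of 2635 bases whose coding part ends at 1790.
Hoxb8 site: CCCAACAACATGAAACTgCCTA

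The next best matches, in Hoxa4 and Hoxd8, paired at 15 of 22 bases. An exact match to the miR-196 seed, ACTACCT, lay in a 3′ UTR of 9 Hox genes, among them Hoxa5, Hoxa7, Hoxb6 and Hoxc8. Anywhere in the transcript it was present in 11 of 39 Hox genes (28.2%) and in 16.7% of 21877 coding genes. A match of letters is a description and shows no binding.

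The promoter windows of 3 Hox genes are printed for the data that follow: Hoxb8 and Hoxc4, with ratios among the highest of the clusters, and Hoxd8, the measured member whose level was not higher in Zeb2 cKO. Each window is the 250 bases before the RefSeq start (GRCm38.p6), on the strand of the gene: Hoxb8 at chr11:96281655-96281904, Hoxc4 at chr15:103034145-103034394 and Hoxd8 at chr2:74704365-74704614, all on the plus strand. Capitals mark TTTATNG, a Cdx and posterior Hox motif, and TGATNNAT, a Pbx and Hox motif, on either strand.
Hoxb8 promoter: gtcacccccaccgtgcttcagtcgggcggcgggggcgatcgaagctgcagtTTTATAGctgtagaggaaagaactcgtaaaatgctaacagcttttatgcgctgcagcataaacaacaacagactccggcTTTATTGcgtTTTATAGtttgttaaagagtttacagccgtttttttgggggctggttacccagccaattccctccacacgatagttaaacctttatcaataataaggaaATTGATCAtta
Hoxc4 promoter: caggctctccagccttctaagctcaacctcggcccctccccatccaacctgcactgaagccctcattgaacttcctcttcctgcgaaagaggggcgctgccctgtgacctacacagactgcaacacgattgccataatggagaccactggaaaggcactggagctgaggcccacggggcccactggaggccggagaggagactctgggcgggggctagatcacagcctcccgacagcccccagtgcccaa
Hoxd8 promoter: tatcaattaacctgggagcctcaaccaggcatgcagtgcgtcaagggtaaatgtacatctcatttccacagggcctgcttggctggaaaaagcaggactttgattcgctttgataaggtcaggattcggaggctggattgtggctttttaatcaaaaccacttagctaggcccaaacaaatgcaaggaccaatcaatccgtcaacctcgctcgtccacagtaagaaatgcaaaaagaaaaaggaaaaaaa

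The Hoxb8 window held 3 matches to TTTATNG and 1 to TGATNNAT, and the windows of Hoxc4 and Hoxd8 held neither. GC content was 44.4% in the Hoxb8 and Hoxd8 windows and 62.0% in the Hoxc4 window. A promoter window was given for 22 of the 39 Hox genes (24 windows), and motifs were searched on both strands of these and of all 32851 windows. CACCTG, an E-box that Zeb proteins bind, was in 0 of 24 Hox windows and in 17.2% of all windows. Its shorter core CACCT, which the longer motif contains, was in 7 Hox windows (29.2%) and in 46.0% of all. A retinoic acid element, written as a direct repeat of AGGTCA spaced by 5 bases, was in 0 Hox windows and in 3 of all windows. TGATNNAT was in the windows of Hoxd11, Hoxa2, Hoxb8 and Hoxb1 (16.7% against 7.68% of all), and TTTATNG in those of Hoxd4 and Hoxb8 (8.33% against 9.81%). The shorter E-box core, the motifs of the Cdx and Pbx families and the miR-196 pairing were chosen after the data were seen.

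Whole-library facts were as follows. The control and Zeb2 cKO libraries held an estimated 2.96e+07 and 2.02e+07 reads on RefSeq transcripts, so the control was 1.47 times as deep. Zeb2, the targeted gene, stood at 34.4 FPKM in the control library and at 19.5 FPKM in Zeb2 cKO, lower in the library labelled as the knockout. FPKM is a fragment number divided by the length of the transcript and the size of the library. Measured genes, those with a mean of at least 1 FPKM over both libraries, numbered 12903. With 1 library per group there are no replicates, no spread between animals can be given and no test was made. A gene counts as higher or lower where log2((Zeb2 cKO FPKM + 1)/(control FPKM + 1)), here called the log2 ratio, is at least 1 or at most -1, that is 2-fold. Folds are plain ratios of FPKM, which the added 1 understates for low genes. Brackets hold 95% counting intervals from reads estimated out of the coverage. They cover counting error only, and are too narrow for short rows, those of Hoxa6, Hoxc11 and the noncoding Gm53 and 2700086A05Rik.

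Hox transcripts as a group were higher in the Zeb2 cKO nerve. The level of all 39 genes summed to 73.4 FPKM in the control library and to 166 FPKM in Zeb2 cKO, 2.27-fold higher. Of the 39, 13 were 2-fold or more higher and 0 were lower, where 8.59% of all measured genes were higher and 6.25% lower. Over every gene with a usable row, measured or not, 5.24% were higher and 3.79% lower. The 13 were Hoxa3, Hoxa5, Hoxa7, Hoxa10, Hoxb5, Hoxb6, Hoxb8, Hoxb9, Hoxc4, Hoxc5, Hoxc6, Hoxc8 and Hoxc9. Another 13 members were measured and lay within 2-fold on that scale, and the remaining 13 were under 1 FPKM in both libraries. In the control, 2 Hox genes reached 5 FPKM, Hoxd8 and Hoxb3, and in Zeb2 cKO 16 did.

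The median log2 ratio of the 26 measured Hox genes was 0.98, and that of all measured genes was 0.18. With all 39 members counted, the Hox median was 0.67. Of the 26, 25 had a log2 ratio above 0, with Hoxd8 as the exception, and 24 lay above the median of all genes. After the Zeb2 cKO values were rescaled to the median gene, 8 Hox genes stayed 2-fold higher (Hoxa5, Hoxa7, Hoxb6, Hoxb8, Hoxb9, Hoxc4, Hoxc5 and Hoxc8), beside 6.25% of all measured genes, and 0 were lower, beside 7.29%. Hoxa2, Hoxb8 and Hoxc8 passed the 1 FPKM filter through their Zeb2 cKO level alone, so for them a difference upward was built into the filter.

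**Figure D1:**
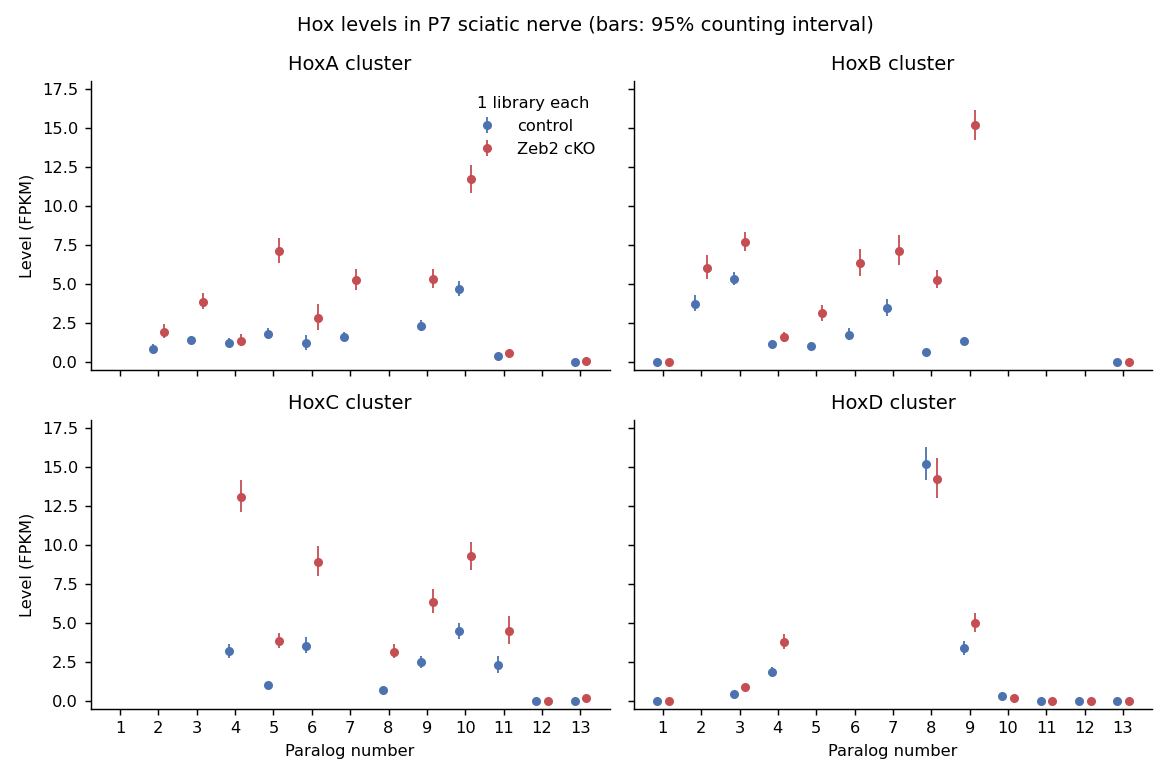
FPKM of 38 Hox genes against their paralog number, 1 panel per cluster, with 1 control and 1 Zeb2 cKO library and bars for the 95% counting interval. Hoxd8 is the highest point of the control at 15.2 FPKM, and Hoxb9 the highest of Zeb2 cKO at 15.2 FPKM, up from 1.32 FPKM.

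The greatest ratios of the clusters were in neighbouring genes of HoxB. Hoxb9, which takes part in patterning the ribs, stood at 1.32 FPKM in the control library and at 15.2 FPKM in Zeb2 cKO, 11.5-fold higher [9.51 to 13.9]. It lies at chr11:96132644-96137907 on mm9, and moved from percentile 7.18 to percentile 64.5 of the measured genes. Hoxb8, known for a role in microglia and grooming, was at 0.613 FPKM and 5.28 FPKM, 8.61-fold higher [6.50 to 11.6], at chr11:96143219-96146639. From Hoxb8 toward Hoxb2 the folds were smaller. Hoxb7, a gene of the thoracic level, was at 3.46 and 7.12 FPKM (2.06-fold [1.67 to 2.54]), with a log2 ratio of 0.86, just under the 2-fold line. Hoxb6, a marker of lateral plate mesoderm, was at 1.73 and 6.33 FPKM (3.65-fold [2.81 to 4.79]). Hoxb5, which acts in neural crest of the gut, was at 1.01 and 3.11 FPKM (3.07-fold [2.29 to 4.16]).

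The anterior end of HoxB differed less. Hoxb4, studied for the growth of blood stem cells, was at 1.18 and 1.60 FPKM (1.36-fold [1.02 to 1.80]). Hoxb3, a hindbrain gene, was at 5.34 and 7.68 FPKM (1.44-fold [1.29 to 1.62]). Its 2 rows went opposite ways. The row that starts farther upstream was at 2.47 and 5.67 FPKM (2.29-fold), while the shorter-spanning row was at 2.87 and 2.01 FPKM (a ratio of 0.702). Both rows share exons, so how Cufflinks split the reads between them bears on these 2 values. Hoxb2, another hindbrain gene, was at 3.74 and 6.04 FPKM (1.61-fold [1.34 to 1.95]). Hoxb1 and Hoxb13, the outermost genes of the cluster, were listed at 0 in both libraries.

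Rows between Hoxb13 and Hoxb9 that are not Hox genes went the same way as Hoxb9 (chosen after their values were seen). Gm53, a noncoding RNA, stood at 0.878 FPKM in the control library and at 13.5 FPKM in Zeb2 cKO, 15.3-fold higher [9.59 to 25.9]. It ends 679 bases before the Mir196a-1 row, which in turn ends 6064 bases before Hoxb9. Mir196a-1 was at 14.9 and 106 FPKM, a ratio of 7.14. That row is 102 bases long, and the library kit captures such short RNA poorly, so its value cannot be told apart from reads of a longer transcript and is no level of the mature microRNA. Hoxb8, whose 3′ UTR holds the near-complete miR-196a site shown above, was higher too, and any action of miR-196 on it was not tested. Mir10a, farther along the cluster, was listed at 0 in both libraries.

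**Figure D2:**
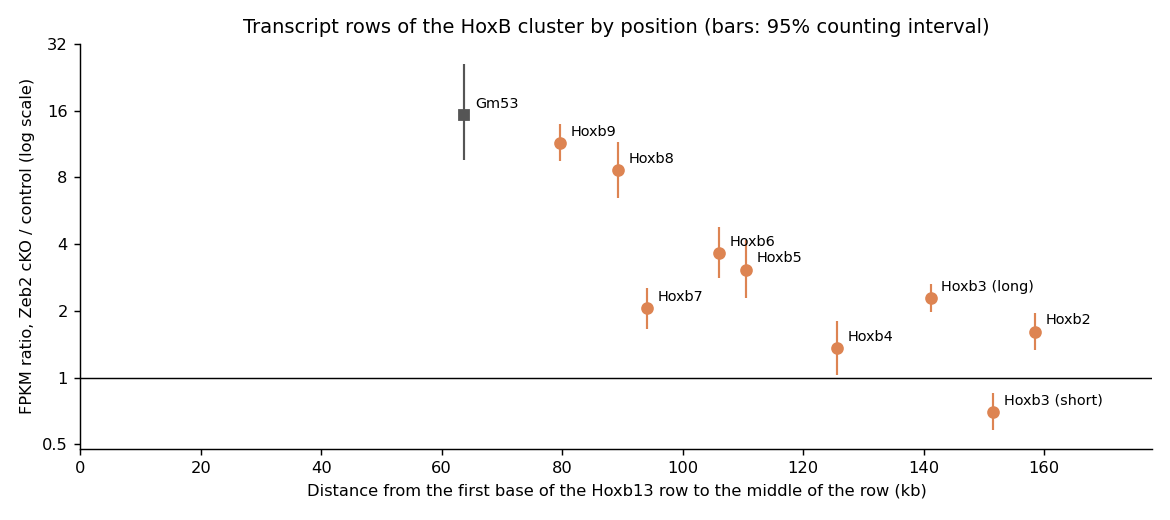
Plain FPKM ratio of Zeb2 cKO over control, on a log axis, for rows of the HoxB cluster of at least 300 bases and above 0 FPKM in the control, against distance in kb from the Hoxb13 row, with bars for the 95% counting interval. Circles are Hox rows and the square is Gm53, and the highest ratios stand next to each other at Gm53 (15.3), Hoxb9 (11.5) and Hoxb8 (8.61), with the short Hoxb3 row at 0.702.

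HoxC had the highest median log2 ratio of the 4 clusters, 1.12, with 5 of its 9 genes 2-fold or more higher. At a mean of at least 5 FPKM, HoxA was above HoxC with 1.16. That value is of Hoxa10 alone, which was under 5 FPKM in the control. Hoxc4, which acts at the cervical level, stood at 3.18 FPKM in the control library and at 13.1 FPKM in Zeb2 cKO, 4.12-fold higher [3.53 to 4.82]. Hoxc8, which sets the identity of brachial motor neurons, was at 0.673 and 3.17 FPKM (4.71-fold [3.48 to 6.46]). Hoxc5 was at 1.00 and 3.86 FPKM (3.85-fold [3.03 to 4.91]), and the Mir615 row inside it was listed at 0 in both libraries. Hoxc6 and Hoxc9 had smaller folds. Hoxc6, a gene of the forelimb level, was at 3.55 and 8.92 FPKM (2.51-fold [2.11 to 3.01]). Hoxc9, which marks the thoracic spinal cord, was at 2.48 and 6.35 FPKM (2.56-fold [2.09 to 3.14]).

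Hoxc10 and Hoxc11 were measured and stayed under the 2-fold line on the log2 ratio. Hoxc10, a lumbar and hind limb gene, was at 4.47 and 9.27 FPKM (2.07-fold [1.79 to 2.41], log2 ratio 0.91). Hoxc11, expressed with it in the hind limb, was at 2.30 and 4.49 FPKM (1.95-fold [1.43 to 2.67]). Hoxc12 was listed at 0 in both libraries, and Hoxc13, a hair follicle gene, was at 0.0262 and 0.218 FPKM, which rest on an estimated 2.27 and 12.9 reads (8.35-fold [2.01 to 63.8]). Mir196a-2, which lies in this cluster, was listed at 0 in both libraries.

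In HoxA, 4 of 11 genes were 2-fold or more higher, in the stretch from Hoxa3 to Hoxa10. Hoxa5, a gene of lung and neck patterning, stood at 1.82 FPKM in the control library and at 7.12 FPKM in Zeb2 cKO, 3.92-fold higher [3.17 to 4.87]. Hoxa7, of the thoracic level, was at 1.60 and 5.23 FPKM (3.26-fold [2.60 to 4.12]). Hoxa3, needed for the thymus and parathyroid, was at 1.38 and 3.87 FPKM (2.81-fold [2.25 to 3.51]). Strand was not used here, and Hoxa3 overlaps Hoxa4, Hoxa5, Hoxa6 and the noncoding 2700086A05Rik, so reads of these genes may be split among them. Hoxa10, which makes lumbar vertebrae ribless, was at 4.69 and 11.7 FPKM (2.49-fold [2.17 to 2.81]), with both of its rows higher (2.72-fold and 1.98-fold). Within 2-fold on the log2 ratio were Hoxa9 (2.31 and 5.33 FPKM, log2 ratio 0.94), a gene of blood progenitors, and Hoxa6 (1.19 and 2.82 FPKM, log2 ratio 0.80).

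The anterior HoxA genes were low. Hoxa2, which patterns the second branchial arch, was at 0.852 and 1.94 FPKM (2.28-fold [1.58 to 3.31], log2 ratio 0.67). Hoxa4 was at 1.23 and 1.36 FPKM, and the interval of its fold, 0.752 to 1.62, held 1. At the posterior end, Hoxa11, which shapes the forearm and lower leg, was at 0.380 and 0.558 FPKM and overlaps the antisense Hoxa11as (0.506 and 0.425 FPKM). Hoxa13, a gene of the hand and foot, was listed at 0 and at 0.0598 FPKM. Mir196b was listed at 0 in both libraries, and 2700086A05Rik was at 0.568 and 1.42 FPKM (2.50-fold [1.32 to 4.86]).

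**Figure D3:**
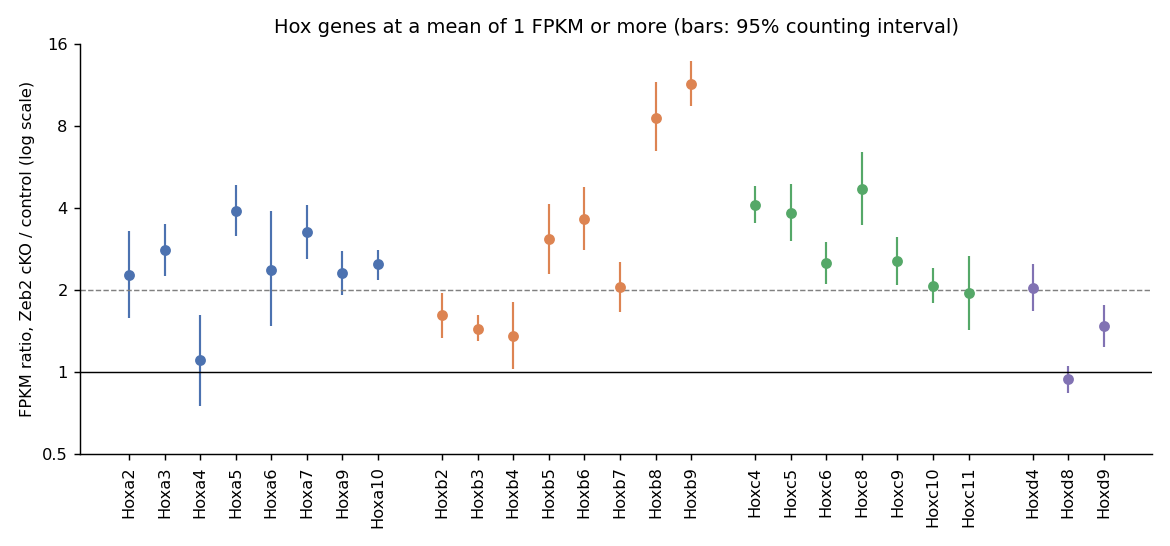
Plain FPKM ratio of Zeb2 cKO over control, on a log axis, for the 26 measured Hox genes, coloured by cluster, with bars for the 95% counting interval, a solid line at 1 and a dashed line at 2. Hoxb9 at 11.5 and Hoxb8 at 8.61 are the highest points, and Hoxd8 at 0.938 is the one below 1.

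HoxD held 3 measured genes, none of them past the 2-fold line on the log2 ratio. Hoxd8 was the most abundant Hox gene of the control at 15.2 FPKM and was at 14.3 FPKM in Zeb2 cKO, a ratio of 0.938 with an interval that held 1 [0.836 to 1.05]. Its percentile among measured genes was 67.4 in the control and 62.7 in Zeb2 cKO. Hoxd9, which acts in the hind limb, was at 3.38 and 5.0 FPKM (1.48-fold [1.24 to 1.77]). Hoxd4, of the cervical level, was at 1.85 and 3.78 FPKM (2.04-fold [1.67 to 2.50], log2 ratio 0.75). Hoxd4 overlaps Hoxd3 (0.463 and 0.869 FPKM) and the Mir10b row, whose 68 bases were at 108 FPKM in the control and listed at 0 in Zeb2 cKO, a value of a short row on which nothing is rested.

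The other HoxD genes were barely detected or listed at 0. Hoxd10, a lumbar motor neuron gene, was at 0.309 and 0.214 FPKM. Hoxd1, Hoxd11, Hoxd12 and Hoxd13 were listed at 0 in both libraries, as were Hoxb1, Hoxb13 and Hoxc12. For these 7 genes, 3 reads, the number that a count of 0 allows, correspond to 0.0335 to 0.10 FPKM in the control and 0.0492 to 0.147 FPKM in Zeb2 cKO. Hoxd11, Hoxd12 and Hoxd13 act in the limb beyond the thigh.

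Summed by cluster, the level went from 16.1 to 40.6 FPKM in HoxA (2.52-fold), from 18.4 to 52.3 FPKM in HoxB (2.84-fold) and from 17.7 to 49.4 FPKM in HoxC (2.79-fold). HoxD went from 21.2 to 24.1 FPKM (1.14-fold). HoxD thus gave the largest share of Hox FPKM in the control, 28.9% [27.6 to 30.1], and the smallest in Zeb2 cKO, 14.5% [13.7 to 15.3]. Its share rests on Hoxd8: without that gene HoxD held 10.3% and 6.49%. HoxB held 25.1% [23.9 to 26.3] in the control and 31.4% [30.4 to 32.5] in Zeb2 cKO. The brackets of shares treat an FPKM share as a share of all estimated Hox reads, so they are approximate. HoxC held 24.1% and 29.7%, and HoxA 21.97% and 24.4%. By estimated reads in place of FPKM, HoxB held the largest share in the control, 29.1%, and HoxD 25.2%. Without Hoxd8, the sum over all clusters went from 58.2 to 152 FPKM (2.61-fold).

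**Figure D4:**
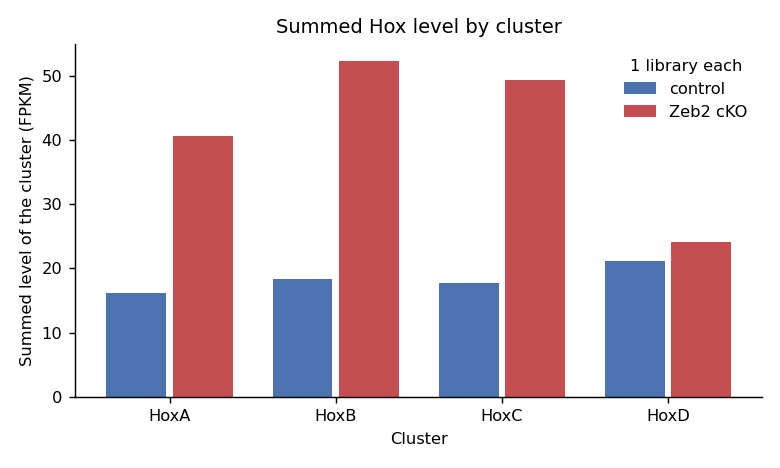
Summed FPKM of each Hox cluster in the control and Zeb2 cKO libraries, 1 library each and so without error bars. HoxA, HoxB and HoxC stand at 40.6, 52.3 and 49.4 FPKM in Zeb2 cKO against 16.1, 18.4 and 17.7 in the control, and HoxD at 24.1 against 21.2.

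By position along the clusters, the middle genes were called most often at the 1 FPKM filter. That order was not kept at a mean of at least 5 FPKM, where 8 Hox genes are left. The median log2 ratios there were 1.10 (genes 1 to 4), 0.86 (5 to 8) and 1.16 (9 to 13). Of these genes, Hoxd8 and Hoxb3 alone reached 5 FPKM in the control. The others passed through their Zeb2 cKO level, so for them a difference upward was built into that filter, and it cannot settle the order. Of the 11 genes numbered 5 to 8, all were measured, 8 were 2-fold or more higher and the median log2 ratio was 1.26. Hoxb8 and Hoxc8, 2 of these 8, passed the 1 FPKM filter through their Zeb2 cKO level alone. All 3 genes numbered 5, Hoxa5, Hoxb5 and Hoxc5, were among the 8. Of the 12 genes numbered 1 to 4, 8 were measured and 2 (Hoxa3 and Hoxc4) were higher, with a median of 0.62. Of the 16 numbered 9 to 13, 7 were measured and 3 (Hoxa10, Hoxb9 and Hoxc9) were higher, with a median of 0.94. No gene numbered 12 or 13 was measured. The shares of Hox FPKM went from 27.1% to 24.6% for genes 1 to 4, from 43.4% to 40.4% for genes 5 to 8 and from 29.5% to 35.1% for genes 9 to 13. The fall for genes 5 to 8 rests on Hoxd8: without that gene their share rose from 28.6% to 34.8%. The share of genes 9 to 13 then went from 37.2% to 38.3%. Ratios differed between paralogs of the same number, without a test: of genes numbered 8, Hoxb8 was 8.61-fold and Hoxc8 4.71-fold higher while Hoxd8 had a ratio of 0.938.

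Other genes of the Hox pathway were read from lists of partners and regulators. Of 11 TALE partners, all measured, 2 were 2-fold or more higher and 0 lower, with a median log2 ratio of 0.67. Meis2, one of the pair, was at 0.983 and 3.55 FPKM (3.62-fold). Of 30 Polycomb subunits, 0 were higher or lower, with a median of 0.26, and the top 2 were Phf19 (log2 ratio 0.87) and Phf1 (0.58). Of 12 Trithorax and H3K27 demethylase genes, 0 were higher or lower, with a median of 0.16 that became -0.01 after rescaling. Psip1 had a log2 ratio of 0.89 and Wdr5 one of 0.49.

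Retinoic acid genes included the widest single difference of these lists. Aldh1a1, which makes retinoic acid, stood at 1.60 FPKM in the control library and at 244 FPKM in Zeb2 cKO (153-fold), and Crabp2, a carrier of retinoic acid, was at 4.02 and 22.7 FPKM (5.65-fold). Of the 16 measured genes of the list, 4 were higher and 1 lower, with a median log2 ratio of 0.65. Named after their values were seen, the retinol transporter Stra6 was 7.02-fold higher and the receptor Rxrg 7.48-fold lower. After rescaling, 3 genes of the list stayed higher. Of 15 upstream regulators, 5 were measured. Gdf11, which acts on posterior Hox genes, was at 2.59 and 7.64 FPKM (2.95-fold), and Egr2, a hindbrain activator of Hox genes and also a myelin regulator, was at 54.5 and 8.79 FPKM, 6.21-fold lower. Cdx1, Cdx2 and Cdx4 were listed at 0 in at least 1 library. Of 23 patterning genes outside the clusters, 6 were measured and 2 were higher, Tbx18 (3.73 and 14.6 FPKM) and Prrx2 (2.24 and 5.86 FPKM), with a median of 0.73. Prrx2 was under the 2-fold line after rescaling.

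Markers of some cell types of the nerve were higher along with the Hox genes, and others were lower or near the median of all genes. In bulk tissue, fewer cells of a type and less RNA per cell cannot be told apart. Fibroblast markers summed to 5744 FPKM in the control library and to 9572 FPKM in Zeb2 cKO (1.67-fold), with 6 of 12 higher and a median log2 ratio of 1.04. Among them Cd34 was 3.07-fold and Dcn 2.62-fold higher. Markers of the perineurium, the sheath around nerve bundles, summed to 101 and 319 FPKM (3.17-fold), with 7 of 9 measured higher, led by Moxd1 (11.7-fold) and Cldn1 (5.58-fold). Adipocyte markers were higher for 4 of 7 measured (median 1.09).

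Schwann cell markers, of the cells that make myelin, went the other way. They summed to 24254 FPKM in the control library and to 1338 FPKM in Zeb2 cKO, 18.1-fold lower, with 7 of 9 lower and Cdh19 2.05-fold higher, led by Mag and Pmp22 (86.8-fold and 25.8-fold lower). All 17 skeletal muscle markers were lower, summing to 9333 and 1150 FPKM (8.12-fold lower), with Myh1 and Acta1 the lowest on the log2 ratio with its added 1 FPKM. Muscle RNA was thus present in both libraries. On the log2 ratio, 0 of the endothelial (10 measured, median 0.69), macrophage (10, median 0.16) and neuron (8, median 0.04) markers were past 2-fold. Pericyte and smooth muscle markers held 2 higher and 1 lower of 9 (Cspg4, Rgs5 and Des, median 0.36), and cartilage, tendon and bone markers 2 higher of 6, Scx and Col2a1 (median 0.72). After rescaling to the median gene, the markers 2-fold or more higher numbered 5 for fibroblast, 5 for perineurium, 2 for adipocyte, 0 for pericyte and smooth muscle and 1 for cartilage, tendon and bone, and Cdh19 was under 2-fold. Matn1, of cartilage, was the one marker listed at 0 in a library. The part of these cell type differences in the Hox result was not tested.

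**Figure D5:**
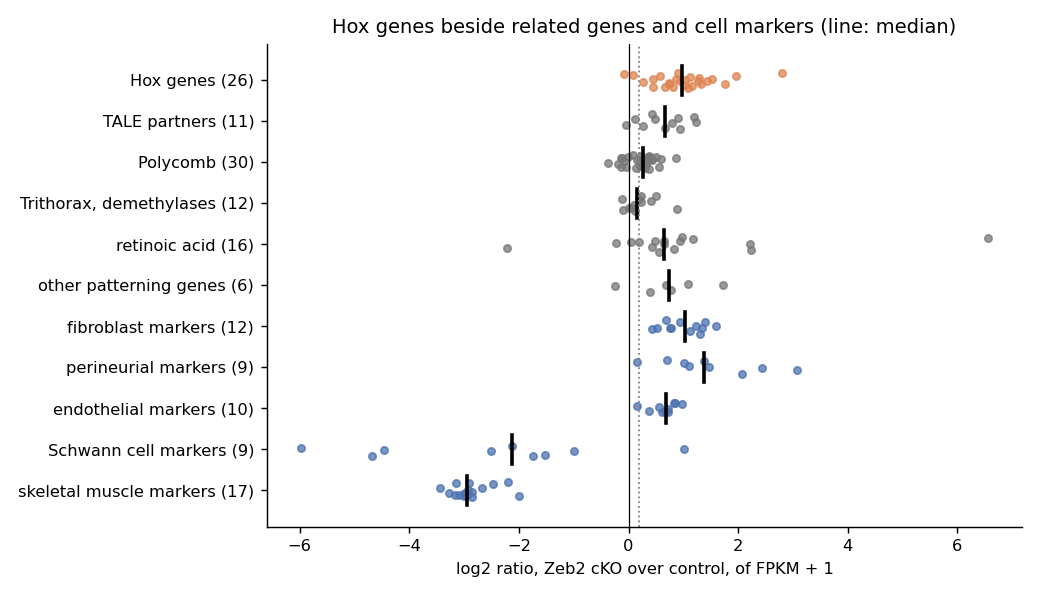
Log2 ratio of each measured gene (points) and the median (black bar) for the Hox genes, 5 related lists and 5 marker lists, with a dotted line at the median of all measured genes (0.18). The Hox median is 0.98. The marker medians are 1.04 (fibroblast), 1.38 (perineurial), 0.69 (endothelial), -2.12 (Schwann cell) and -2.95 (skeletal muscle). The other marker lists are not drawn, among them adipocyte markers with a median of 1.09.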

How the data were processed

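RNA of pooled sciatic nerves was extracted with Trizol and made into Illumina TruSeq libraries, per the labels' protocols. The submitters' processing notes name CASAVA, TopHat, Cufflinks, Cuffdiff and mm9, without versions. Per the file headers, each deposited table gives FPKM, computed by the authors with Cufflinks, and coverage signal for 28107 RefSeq rows. In the labels a table belongs to both samples of a group, without saying whether it holds 1 of them or both combined. Each was treated as 1 library of its group. The 295 rows whose status was not OK in both tables were left out and FPKM summed per symbol, with Python 3.11.15, pandas 2.3.3 and scipy 1.17.1. FPKM is not a count and groups hold 1 library, so no test was made. Reads were estimated as coverage times length divided by 52.6 bases, the smallest step of the deposited coverage (480 values, 10th to 90th percentile 46.6 to 60.4), with Poisson and Clopper-Pearson intervals. No read number was estimated for rows under 300 bases. Measured members, and the 2 largest ratios of each list, were named. Members and lists were chosen with earlier results of these data known. Alternatives were other pseudocounts, filters, folds, scalings, rows and statuses. The counting code was tested on simulated data. Coordinates are those of mm9, counted from 1, except where GRCm38 is named. The protein table and a genome of mm9 were not used here. Some genes of the clusters and lists are not reported here.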

Additional observations from a re-analysis of the deposited data

How the results depend on the processing

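No paired analysis was possible because 1 table per group was analysed, which also means that leaving out a replicate was not possible. The count of 13 Hox genes 2-fold or more higher became 4 at a mean of at least 5 FPKM (8 Hox genes left, 8.12% of all genes called higher), 8 after rescaling to the median gene, 20 at 1.5-fold (19.7% of all genes) and 3 at 3-fold (3.11%). It was 18 with a pseudocount of 0.1 (12.1% of all genes), 14 with 0.5 (10.4%) and 14 with library-scaled estimated reads (11.1%), where 29 Hox genes were measured. With genes overlapping no other gene (20 measured), an alternative added after the data were seen, it was 10. The 4 genes called higher at a mean of at least 5 FPKM were all under 5 FPKM in the control. For them a difference upward was thus built into that filter. The count of lower Hox genes stayed 0 in every setting run. The median log2 ratio of 0.98 was 1.24 and 1.13 with pseudocounts of 0.1 and 0.5, 0.67 without a filter and 0.84 after rescaling. The HoxD median turned to -0.086 at a mean of at least 5 FPKM, where Hoxd8 was the one HoxD gene left.

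Shares moved beyond the approximate interval of the main FPKM share as follows. Shares of estimated reads are another quantity than shares of FPKM. Taking the top row of each gene, control shares were 22.5% (HoxB), 25.6% (HoxC), 30.7% (HoxD), 24.6% (genes 1 to 4) and 46.1% (5 to 8), and Zeb2 cKO shares 23.4% (HoxA) and 41.6% (5 to 8). With estimated reads, control shares were 23.3%, 29.1%, 22.3% and 25.2% (HoxA to HoxD), 34.2% (1 to 4) and 35.1% (5 to 8). Zeb2 cKO shares were then 35.2%, 27.3% and 12.9% (HoxB to HoxD), 28.3% (1 to 4), 34.4% (5 to 8) and 37.3% (9 to 13). Without Hoxd8, control shares were 27.7%, 31.6%, 30.4% and 10.3% (HoxA to HoxD), 34.2% (1 to 4), 28.6% (5 to 8) and 37.2% (9 to 13). Zeb2 cKO shares were then 26.7%, 34.4%, 32.4% and 6.49%, 26.9%, 34.8% and 38.3%. HoxD was lower in share in Zeb2 cKO than in the control in each of these settings. Genes 5 to 8 were lower in share in Zeb2 cKO with the top row and with estimated reads, and higher without Hoxd8. Estimated reads weight genes by transcript length. The cause of the other shifts was not tested.

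Depth limits the low genes: measured members rested on 29.5 to 770 estimated reads in the control and 47.7 to 992 in Zeb2 cKO.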
